A study of Mus musculus with 12 samples.

Results

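Brain blood vessels were represented by 35 listed mouse genes of endothelium, barrier transport and the vessel wall, of which 33 were measured among 19938 genes. The genes were taken by symbol, 1 probe set per symbol, from probe sets annotated to a single gene symbol. They comprised 17 of 19 listed endothelial genes, 6 genes of transport across the blood-brain barrier and 10 mural genes. The mural genes were those of pericytes (6 genes), of smooth muscle (3 genes) and Notch3, which both cell types carry. Ly6c1 shares its probe sets with Ly6c2, and no probe set annotated to Ly6a alone was among those used, so neither gene was analysed. All 33 measured genes had 1 probe set each, and none was among the 25% of genes with the lowest mean signal.

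Endothelial cells line the capillaries of the brain, and tight junctions between them (claudin-5, occludin) seal the blood-brain barrier. Transporters in the same cells bring in glucose, thyroid hormone and lipids, and efflux pumps return drugs to the blood. Pericytes sit on the capillary wall and are held there by PDGF signalling through Pdgfrb, while smooth muscle cells wrap the arterioles and set their width.

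The arrays held total RNA of whole tissue from adult C57BL/6 mice, either wild type (WT) or carrying a knockout (KO) of RasGRF2, which encodes a calcium-responsive exchange factor that activates Ras. The 4 groups were WT hippocampus, KO hippocampus, WT olfactory bulb and KO olfactory bulb, with 3 arrays each, from 3 mice per genotype. All mice had lived in a conventional animal facility where they met common pathogens, and received no treatment. The deposited text states neither the cells that lose RasGRF2 nor the deleted exons.

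All values are on the log2 scale of RMA (robust multi-array averaging), a method that subtracts background and puts all arrays on 1 distribution. A difference of 1 is a doubling of signal, and RMA differences understate large changes in RNA. Genes were called at a Benjamini-Hochberg adjusted p under 0.05 in limma over all 19938 genes, and adjusted p-values below are limma's. Median values of all genes were 6.82 to 6.89 on the hippocampus arrays and 6.93 to 6.96 on the bulb arrays. Rasgrf2 read 9.32, 9.14 and 9.18 on the WT hippocampus arrays and 8.64, 8.76 and 8.49 on the KO arrays, a fall by 0.58 (SE 0.077, n = 3 and 3, limma adjusted p = 0.00197). In the bulb all KO arrays also lay below all WT arrays, with a difference of -0.14 that did not pass the test (limma adjusted p = 0.532). Whether the probe set lies in the deleted part was not given.

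Of the 33 vascular genes, 23 were above the median signal of the array on all 12 arrays and 3 were below it on all 12. Mean log2 signals over the 12 arrays ran from 5.83 for Higd1b, a pericyte transcript, to 10.21 for Slc2a1, the glucose transporter GLUT1. Signals of different probe sets are not on 1 scale, so these levels carry no order between genes. Because whole tissue was measured, fewer cells of a type and less RNA per cell cannot be told apart in any value below.

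Of the 33 genes, 22 had promoter entries in RefSeq's table for the mouse build GRCm38.p6, with 25 windows of 250 bases before a transcription start. All 11 genes whose signals differed between the tissues in both genotypes have a window, and those of 5 are shown, picked after their values and matches were seen: Ocln and Slco1c1, higher in hippocampus, and Emcn, Slco1a4 and Abcb1a, 3 of the 9 higher in bulb. The windows, 5′ to 3′ on the strand of the gene, are chr13:100552719-100552968 (minus strand) for Ocln, chr6:141524104-141524353 (plus) for Slco1c1, chr3:137340828-137341077 (plus) for Emcn, chr6:141856221-141856470 (minus) for Slco1a4 and chr5:8566841-8567090 (plus) for Abcb1a. Capitals mark AGGAAG, a core sequence bound by ETS factors such as ERG and FLI1 that endothelial cells use, or its reverse complement CTTCCT.
Ocln: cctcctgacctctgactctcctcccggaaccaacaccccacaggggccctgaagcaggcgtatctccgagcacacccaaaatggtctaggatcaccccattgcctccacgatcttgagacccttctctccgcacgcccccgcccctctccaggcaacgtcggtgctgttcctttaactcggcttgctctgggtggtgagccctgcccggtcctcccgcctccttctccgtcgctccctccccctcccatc
Slco1c1: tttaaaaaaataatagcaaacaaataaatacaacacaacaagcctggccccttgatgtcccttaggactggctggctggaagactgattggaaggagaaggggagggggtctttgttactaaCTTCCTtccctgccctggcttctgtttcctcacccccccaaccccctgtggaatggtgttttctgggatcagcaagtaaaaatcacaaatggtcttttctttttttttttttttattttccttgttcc
Emcn: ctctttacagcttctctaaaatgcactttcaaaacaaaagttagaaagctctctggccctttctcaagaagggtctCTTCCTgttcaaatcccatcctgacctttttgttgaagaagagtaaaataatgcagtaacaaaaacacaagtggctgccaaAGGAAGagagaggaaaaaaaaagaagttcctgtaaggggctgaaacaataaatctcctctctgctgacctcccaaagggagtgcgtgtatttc
Slco1a4: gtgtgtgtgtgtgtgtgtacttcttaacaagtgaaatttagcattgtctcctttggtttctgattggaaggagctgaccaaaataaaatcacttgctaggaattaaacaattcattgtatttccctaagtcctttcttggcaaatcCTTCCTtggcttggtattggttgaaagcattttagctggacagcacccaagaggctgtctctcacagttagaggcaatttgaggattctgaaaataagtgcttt
Abcb1a: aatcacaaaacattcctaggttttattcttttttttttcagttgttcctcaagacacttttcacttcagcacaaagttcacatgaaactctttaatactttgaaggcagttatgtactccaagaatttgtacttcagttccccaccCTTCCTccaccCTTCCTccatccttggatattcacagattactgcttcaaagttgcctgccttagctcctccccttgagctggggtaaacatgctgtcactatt

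AGGAAG or CTTCCT occurred in 11 of the 25 windows (44.0%), against 29.5% of all 32851 windows in the table. The 11 windows belonged to 9 genes: Emcn, Eng, Flt1, Itm2a and Tie1 among the endothelial genes, and Abcb1a, Abcg2, Slco1a4 and Slco1c1 among the barrier transporters. In barrier transport the letters were in 6 of 8 windows, in the endothelial group in 5 of 11 and in the mural group in 0 of 6. Several of the barrier windows belong to Abcg2. Counted by gene, the letters were in 4 of 6, 5 of 10 and 0 of 6. Over the 22 genes the count was 9, against 8734 of all 27025 genes in the table. The printed window of Emcn has matches starting 174 and 93 bases before the transcription start, that of Abcb1a 104 and 93 bases before it, and those of Slco1a4 and Slco1c1 104 and 128 bases before it. The printed Ocln window, the one upstream of both annotated starts, has none. The printed genes are not typical of the 11: 4 of the 5 have a match, against 1 (Flt1) of the 6 not printed, while Cldn5, Mfsd2a, Anpep, Vtn and Notch3 have none. The strict CArG box, the element read by serum response factor in smooth muscle genes, with A or T at each of its 6 middle letters between CC and GG, occurred in 0 of the 25 windows and in 1.47% of all windows. With at most 1 C or G among the middle letters, a search added after the first, it occurred in 5 of 25 (20.0%), against 8.59% of all windows. These were windows of Acta2, with matches starting 84 and 34 bases before the start, Eng, Kdr, Ocln and Slco1a4. These are matches of letters, those of AGGAAG present on both sides of the tissue difference, and not measured binding.

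The first comparison set hippocampus against olfactory bulb, separately in WT and in KO mice, which share no animal or array. In both genotypes the tight-junction gene Ocln and the thyroid hormone transporter Slco1c1 were higher in hippocampus, while Emcn, Cldn5, Flt1, Slco1a4, Abcb1a, Mfsd2a, Anpep, Vtn and Notch3 were higher in bulb. The vascular genes differed in both directions: 11 of 33 were called in both genotypes, 2 higher in hippocampus and 9 higher in bulb, 4 in WT alone, 2 in KO alone and 16 in neither. In WT 15 of 33 were called (45.5%), against 40.9% of all genes, and in KO 13 of 33 (39.4%), against 39.1%. These shares are near those of all genes. By direction, 17.5% of all genes were called higher and 23.4% lower in WT hippocampus, and 19.2% and 19.9% in KO. Over all genes, 14.3% were called higher in hippocampus in both genotypes and 16.3% lower. The count in WT was 9 without WT bulb replicate 2, and the count in KO was 8 without KO hippocampus replicate 4 and 8 without replicate 6.

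The split of direction depended on scaling. As deposited, 4 of the vascular genes were called higher in WT hippocampus and 11 lower, and the median difference of all genes was -0.07. With each array centred on its median, which raises the differences in WT by 0.11, the split was 8 higher and 3 lower (Emcn, Abcb1a and Vtn), and after a further quantile normalization it was 6 and 10. In KO the split was 3 and 10 as deposited, 4 and 5 centred (Emcn, Mfsd2a, Anpep, Vtn and Notch3 lower) and 6 and 9 after quantile normalization. For all genes in WT, 3480 higher and 4668 lower as deposited became 4911 and 2888 when centred. No vascular gene called as deposited changed sign under either scaling.

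**Figure D1:**
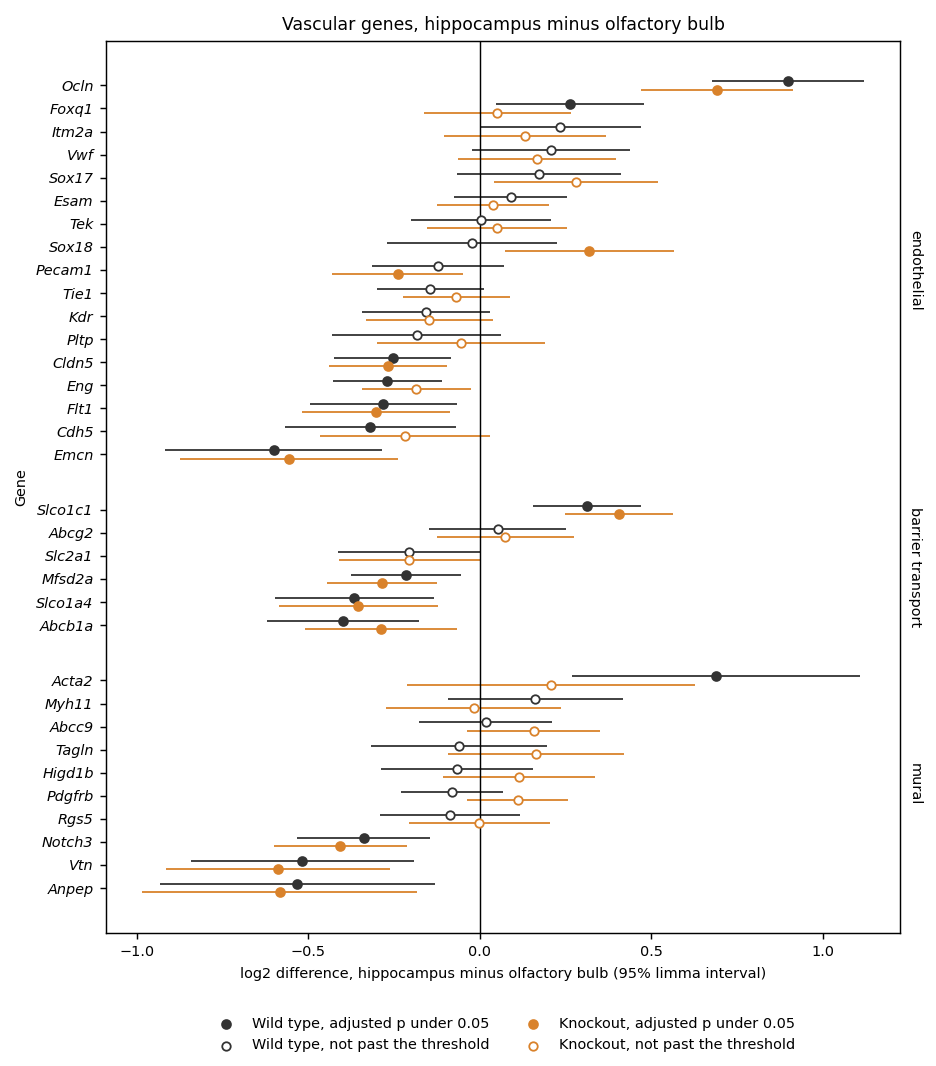
Log2 difference between hippocampus and olfactory bulb (horizontal axis) for the 33 vascular genes, in wild-type (dark) and knockout mice (orange), with 95% limma intervals and 3 arrays a group. Filled points have an adjusted p under 0.05. Ocln lies farthest to the right in both genotypes, at 0.90 and 0.69, and Emcn, Vtn and Anpep lie farthest to the left, between -0.52 and -0.60.

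Among the endothelial genes, Ocln encodes occludin, a membrane protein of tight junctions. It read 7.64, 7.35 and 7.52 on the WT hippocampus arrays, against 6.62, 6.60 and 6.59 in WT bulb. On the KO arrays it read 7.39, 7.54 and 7.07 in hippocampus and 6.59, 6.67 and 6.68 in bulb. All hippocampus arrays lay above all bulb arrays, and the bulb arrays differed less among themselves than the hippocampus arrays. The difference was 0.90 in WT (SE 0.10, adjusted p = 4.7e-06), a 1.86-fold signal, and 0.69 in KO (adjusted p = 6.7e-05). It passed under all 17 alternative settings in each genotype.

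Emcn encodes endomucin, a surface glycoprotein of capillary and venous endothelium. It read 8.83, 8.25 and 8.55 in WT hippocampus and 9.35, 9.23 and 8.85 in WT bulb. In KO it read 8.49, 8.44 and 8.13 in hippocampus and 8.76, 8.95 and 9.02 in bulb. The bulb arrays were higher without overlap in both genotypes. Hippocampus minus bulb was -0.60 in WT (SE 0.15, adjusted p = 0.0042) and -0.56 in KO (adjusted p = 0.00724), and it passed under all 17 settings in each.

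Cldn5, the main claudin of the brain barrier, and Flt1, which encodes the VEGF receptor VEGFR1, showed smaller differences in the same direction. Cldn5 read 8.77, 8.81 and 8.74 in WT hippocampus and 8.85, 9.13 and 9.10 in WT bulb, a difference of -0.25 (adjusted p = 0.0193), and -0.27 in KO (adjusted p = 0.0147). The WT call of Cldn5 was lost without WT bulb replicate 2 (adjusted p = 0.0865) or 3 (0.0732), or without WT hippocampus replicate 1 (0.0501) or 3 (0.0624), and the KO call without KO hippocampus replicate 5 (0.0586). The WT call was also lost with the mouse as a fixed block (0.0623). Flt1 differed by -0.28 in WT (adjusted p = 0.0364) and by -0.30 in KO (adjusted p = 0.0265). The WT call of Flt1 was lost without bulb replicate 1 or 2 or hippocampus replicate 2 or 3 (adjusted p 0.072 to 0.164), and the KO call without bulb replicate 4 or 6 or hippocampus replicate 4 or 6 (0.0591 to 0.125). With arrays centred neither gene passed in WT (adjusted p 0.183 for Cldn5 and 0.232 for Flt1).

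Other endothelial genes passed in a single genotype. In WT these were Cdh5 (VE-cadherin, -0.32, adjusted p = 0.0393), Eng (endoglin, -0.27, adjusted p = 0.00864) and the transcription factor gene Foxq1 (0.26, adjusted p = 0.0485). In KO they were the adhesion molecule gene Pecam1 (-0.24, adjusted p = 0.046) and the transcription factor gene Sox18 (0.32, adjusted p = 0.0395). The difference of the tissue effects between genotypes did not pass for any of the 33 genes, so these calls are not shown to differ between WT and KO. Eng kept its call without any 1 array. Cdh5 lost its call without WT bulb replicate 1 or 2 or hippocampus replicate 2 or 3 (adjusted p 0.0772 to 0.177), Foxq1 without any 1 WT array but bulb replicate 2 (0.0628 to 0.221), Pecam1 without KO bulb replicate 4 or 5 or hippocampus replicate 4 or 6 (0.0636 to 0.233) and Sox18 without any 1 KO array (0.0576 to 0.11). With the mouse as a fixed block, Cdh5 (0.065) and Pecam1 (0.0731) missed the threshold and Sox17 passed in KO (0.28, adjusted p = 0.0288). With the mouse as a random block by animal code, Foxq1 (0.059), Pecam1 (0.0565) and Sox18 (0.0518) missed it. In the main fit Kdr, Tek, Tie1, Esam, Vwf, Itm2a, Sox17 and Pltp passed in neither genotype, among them Kdr, which encodes the main VEGF receptor (-0.16 in WT and -0.15 in KO). Of 17 alternative settings, Sox17 passed in 7 in KO and in 2 in WT. In WT Vwf passed in 3, Itm2a in 2, and Esam and Pltp in 1 each.

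Of the barrier transporters, Slco1c1 carries thyroid hormone into brain. It read 9.19, 9.09 and 9.22 in WT hippocampus and 8.82, 8.97 and 8.76 in WT bulb. In KO it read 9.16, 9.22 and 9.04 in hippocampus and 8.73, 8.74 and 8.73 in bulb. Hippocampus was higher on every array, and the KO bulb arrays had an SD of only 0.0075. The difference was 0.31 in WT (SE 0.074, adjusted p = 0.00317) and 0.41 in KO (adjusted p = 0.000384), and it passed under all 17 settings in each.

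Slco1a4, another organic anion transporter, went the other way. It read 9.19, 8.72 and 9.03 in WT hippocampus and 9.47, 9.32 and 9.25 in WT bulb, and 8.82, 8.88 and 8.60 against 9.17, 9.05 and 9.14 in KO. The difference was -0.37 in WT (adjusted p = 0.0138) and -0.35 in KO (adjusted p = 0.017), with no overlap of the tissues. It lost its WT call without bulb replicate 1 (adjusted p = 0.0623) or hippocampus replicate 2 (0.0738), and its KO call without bulb replicate 4 (0.0565) or hippocampus replicate 6 (0.0828).

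Abcb1a encodes P-glycoprotein, an efflux pump for many drugs. It read 8.36, 7.99 and 8.12 in WT hippocampus and 8.46, 8.74 and 8.47 in WT bulb, a difference of -0.40 (SE 0.10, adjusted p = 0.00596). In KO the difference was -0.29 (adjusted p = 0.0379), and that call was lost without any 1 of 5 of the 6 KO arrays, all but hippocampus replicate 5 (adjusted p 0.0663 to 0.168). Mfsd2a, the transporter of lysophosphatidylcholine lipids, read 9.23, 9.09 and 9.27 in WT hippocampus and 9.34, 9.43 and 9.46 in WT bulb (-0.22, adjusted p = 0.0317). In KO it differed by -0.28 (adjusted p = 0.00668). The WT call of Mfsd2a was lost without WT bulb replicate 2 or 3 or hippocampus replicate 1 or 2 (adjusted p 0.0521 to 0.131) and with the mouse as a fixed block (0.0585), while its KO call passed under all 17 settings. Slc2a1 (-0.21 in WT, adjusted p = 0.103) and the efflux pump gene Abcg2 (0.05, adjusted p = 0.69) passed in neither genotype in the main fit. Slc2a1 passed in 2 of 17 alternative settings in each genotype, lower in hippocampus.

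Among the mural genes, Vtn encodes vitronectin, a matrix protein made by brain pericytes. It read 10.30, 9.44 and 9.82 in WT hippocampus and 10.36, 10.51 and 10.24 in WT bulb. In KO it read 9.88, 9.86 and 9.66 in hippocampus and 10.40, 10.33 and 10.43 in bulb. WT hippocampus replicate 1 overlapped the bulb arrays, and in KO the tissues did not overlap. The difference was -0.52 in WT (SE 0.15, adjusted p = 0.0131) and -0.59 in KO (adjusted p = 0.00594), and the WT call was lost without bulb replicate 2 (adjusted p = 0.0583) or hippocampus replicate 2 (0.0618).

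Anpep encodes aminopeptidase N, the pericyte surface marker CD13. It read 7.10, 6.25 and 6.49 in WT hippocampus and 7.34, 7.37 and 6.73 in WT bulb (-0.53, SE 0.19, adjusted p = 0.0336), with overlap. In KO it read 6.39, 6.50 and 6.53 against 6.98, 6.96 and 7.22, without overlap (-0.58, adjusted p = 0.0219). The WT call was lost without bulb replicate 1 or 2 or hippocampus replicate 2 or 3 (adjusted p 0.107 to 0.152), and the KO call without bulb replicate 6 (0.085) or hippocampus replicate 4 (0.0714).

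Notch3, the Notch receptor of mural cells, read 7.13, 7.29 and 7.11 in WT hippocampus and 7.42, 7.60 and 7.52 in WT bulb. In KO it read 7.24, 6.98 and 7.03 in hippocampus and 7.34, 7.58 and 7.54 in bulb. The bulb arrays were higher without overlap in both genotypes. The difference was -0.34 in WT (adjusted p = 0.0072) and -0.41 in KO (adjusted p = 0.00197). It kept both calls without any 1 array, and with arrays centred it missed the threshold in WT (adjusted p = 0.0577).

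The 4 other pericyte genes passed in neither genotype in the main fit: Pdgfrb (-0.08 in WT and 0.11 in KO), Rgs5 (-0.09 and -0.0014), Abcc9 (0.02 and 0.16) and Higd1b (-0.07 and 0.11). In KO Pdgfrb passed in 2 of 17 alternative settings and Abcc9 in 1, both higher in hippocampus. Vtn and Anpep were thus higher in bulb, while the other pericyte genes, Pdgfrb among them, did not pass in the main fit. The 18 meningeal and fibroblast genes taken as markers of another tissue had a median hippocampus minus bulb of -0.27 in WT and -0.31 in KO. In WT 3 were called lower and 2 higher (27.8% of the list, against 40.9% of all genes). In KO 7 were called lower and 3 higher (55.6%, against 39.1%). On the WT hippocampus arrays the mean of these 18 genes, set against the WT hippocampus mean, was 0.39, -0.37 and -0.02. Vtn and Anpep had the same order of arrays, which was not particular to meninges. Over smaller ranges, choroid plexus (0.35, -0.21 and -0.14), oligodendrocyte (0.05, -0.07 and 0.02), astrocyte and neuron genes had it too. Blood genes did not (0.05, 0.02 and -0.08). The part of meninges in the differences of Vtn and Anpep was not tested. Of the smooth muscle genes, Acta2 (smooth muscle actin) was higher in WT hippocampus by 0.69 (SE 0.20, adjusted p = 0.0107), a call lost without WT hippocampus replicate 1 (0.44, adjusted p = 0.0572). In KO it differed by 0.21 (adjusted p = 0.441). Tagln and Myh11, which encode a smooth muscle actin-binding protein and smooth muscle myosin, passed in neither genotype in the main fit. Myh11 passed in WT in 1 of 17 alternative settings.

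Other genes of the same cells and their signals were taken as lists. Of 31 measured further endothelial genes, 11 were called in WT, 3 higher in hippocampus and 8 lower, and 9 in KO, 4 higher and 5 lower. These are 35.5% and 29.0% of the list, below the 40.9% and 39.1% of all genes. Jam2, a junctional adhesion molecule that other brain cells also make, read 9.32, 9.06 and 9.24 in WT hippocampus against 10.99, 10.96 and 10.97 in WT bulb, a difference of -1.77 (adjusted p = 5.08e-11), and -1.49 in KO. The carbonic anhydrase gene Car4 was higher in hippocampus by 0.84 in WT and 0.86 in KO (adjusted p = 1.32e-07 and 1.04e-07), and Cyyr1 was lower by -0.80 and -0.69. Of 18 further mural genes, 3 were called in each genotype (16.7%, again below the 40.9% and 39.1% of all genes), all lower in hippocampus, among them the Notch target gene Heyl (-0.70 in WT, adjusted p = 1.4e-05, and -0.56 in KO, adjusted p = 0.000132). Atp13a5, a pericyte transporter gene, differed by -0.29 and -0.25, calls that were lost with arrays centred (adjusted p 0.0656 and 0.0514) and, in KO, without hippocampus replicate 4 (0.056).

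Wnt and norrin signals from neural cells induce and keep the barrier in brain endothelium. Of 18 measured genes of this pathway, 13 were called in WT, 3 higher in hippocampus and 10 lower, and 8 in KO, 1 higher and 7 lower. The shares called were 72.2% in WT, against 40.9% of all genes, and 44.4% in KO, against 39.1%. The ligand genes Wnt7a and Wnt7b differed in opposite directions, Wnt7a by -0.72 in WT and -0.75 in KO, and Wnt7b by 0.39 and 0.45. Their co-receptor genes Adgra2 (GPR124; -0.87 and -0.84) and Reck (-0.37 and -0.45) were lower in hippocampus, as was Apcdd1, which encodes a Wnt inhibitor (-0.69 and -0.74). Each of these 5 genes passed under all 17 settings in both genotypes (highest adjusted p 0.0102).

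Of 38 genes of angiogenic signalling, which covers the VEGF, angiopoietin, Notch, TGF-beta, PDGF, apelin and hypoxia genes, 23 were called in WT, 5 higher in hippocampus and 18 lower, and 20 in KO, 7 higher and 13 lower. The shares called were 60.5% in WT, against 40.9% of all genes, and 52.6% in KO, against 39.1%. Nrp1 and Nrp2, co-receptors for VEGF and semaphorins that neurons also carry, were higher in hippocampus (1.85 and 1.61 in WT; 1.68 and 1.61 in KO). The Notch target gene Hey2 was lower by -2.16 in WT and -2.61 in KO. Vegfa, the main angiogenic ligand, read 9.0 on each of the 3 WT hippocampus arrays and 9.29, 9.26 and 9.27 in WT bulb, a difference of -0.27 (SE 0.059, adjusted p = 0.00162), and -0.26 in KO, with no overlap in either genotype. With arrays centred it missed the threshold in WT (adjusted p = 0.0578).

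**Figure D2:**
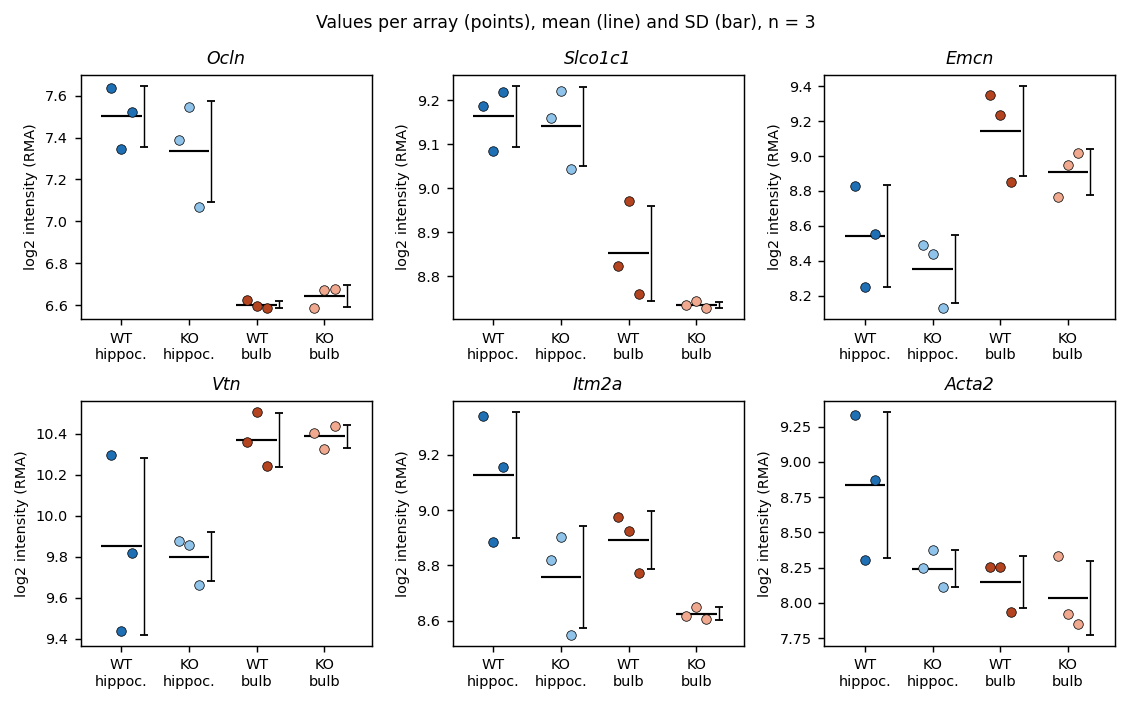
Log2 intensity (vertical axis, own scale per gene) of 6 vascular genes on each of 12 arrays, by genotype and tissue, with the mean and the SD of 3 arrays. Ocln and Slco1c1 were higher in hippocampus, Emcn and Vtn higher in bulb, and Acta2 ranged from 8.30 to 9.34 among the 3 WT hippocampus arrays.

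The second comparison set KO against WT within each tissue. No vascular gene was called in either tissue. In hippocampus 0 of 33 were called by limma, while 0.256% of all genes were, and 2 (6.06%) had an unadjusted p under 0.05, against 8.91% of all genes. In bulb 0 of 33 were called, against 0.411% of all genes, and 6 (18.2%) had an unadjusted p under 0.05, against 11.3%. The limma test of the difference between the tissues' KO effects called 0 of 33, against 0.015% of all genes, and 0 had an unadjusted p under 0.05, against 10.7%. On the mean of each mouse's tissues, 3 mice against 3, limma called 0 of 33, against 0.577% of all genes, and 8 (24.2%) had an unadjusted p under 0.05, against 9.93%.

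The intervals limit the size of what could have been missed. The 95% limma interval of KO minus WT lay within a 1.5-fold change in either direction for 31 of 33 genes in hippocampus, all but Itm2a and Acta2, and for 32 of 33 in bulb, all but Sox18. For Cldn5 the difference was -0.01 in hippocampus (95% interval -0.18 to 0.16) and 0.00058 in bulb (-0.17 to 0.17). For Vwf it was -0.03 (-0.26 to 0.20) and 0.0093 (-0.22 to 0.24), and for Slc2a1 -0.06 (-0.27 to 0.14) and -0.07 (-0.27 to 0.14).

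Directions were uneven. In each tissue 26 of 33 genes had a negative KO minus WT difference. In hippocampus the median was -0.08, against 0.03 over all genes, of which 63.0% were above 0. By group, 16 of 17 endothelial genes were below 0 (median -0.12), 4 of 6 barrier transporters (median -0.04) and 6 of 10 mural genes (median -0.07), among them all 3 smooth muscle genes, while 4 of 6 pericyte genes were above 0. Without WT hippocampus replicate 1 the medians were -0.0041 for all 33 genes, -0.05 for the endothelial genes, 0.0088 for barrier transport and 0.06 for mural genes. Without WT hippocampus replicate 2 the median of all 33 was -0.15 and that of barrier transport -0.09. The barrier transport median also turned to 0.01 without KO hippocampus replicate 4 and was -0.10 without replicate 5, and the mural median was -0.03 without replicate 6.

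In bulb the median was -0.08, against -0.02 over all genes, of which 44.5% were above 0. By group, 13 of 17 endothelial genes, 5 of 6 barrier transporters and 8 of 10 mural genes were below 0. The median was -0.05 without WT bulb replicate 2 and -0.12 without WT bulb replicate 3. All 3 KO bulb arrays lay below all 3 WT bulb arrays for 12 of 33 genes (36.4%), where 8.87% of all genes did, and above them for 0, where 8.22% of all genes did. In hippocampus all KO arrays lay lower for 2 of 33 genes (6.06%), Pecam1 and Pltp, against 3.66% of all genes, and higher for 0, against 9.39%. The 12 genes in bulb were Cdh5, Tek, Tie1, Eng, Itm2a, Sox18 and Pltp of the endothelial group, Slco1a4, Slco1c1 and Abcb1a of barrier transport, and Pdgfrb and Tagln of the mural group. None of the 12 passed the test, and genes of the same cells share their 6 arrays, so they are not separate evidence. Some markers of other cells also lay lower in KO bulb without overlap: 3 of 7 genes of olfactory ensheathing glia (42.9%), 3 of 11 of oligodendrocytes (27.3%) and 3 of 18 of meninges and fibroblasts (16.7%), against 0 of 16 of neurons. The mean log2 level of the oligodendrocyte genes was 8.41 to 8.50 on the KO bulb arrays and 8.54 to 8.61 on the WT bulb arrays, without overlap. Their part in the vascular values was not tested, and the pattern is not shown to be particular to vessels. Of 31 further endothelial genes, 24 were below 0 in bulb (median -0.12), while in hippocampus 15 were below 0 (median 0.0056). In bulb 4 of these 31 lay lower in KO without overlap (12.9%), near the 8.87% of all genes.

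**Figure D3:**
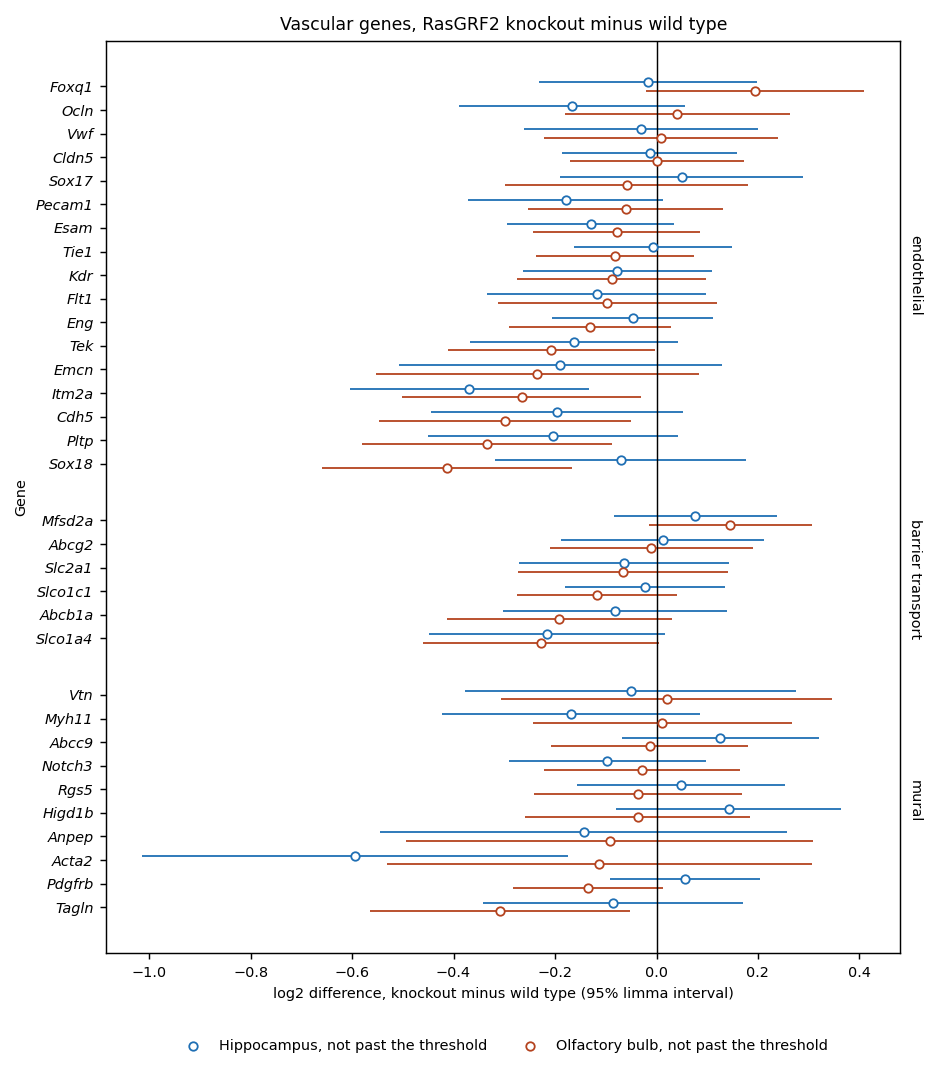
Log2 difference between knockout and wild type (horizontal axis) for the 33 vascular genes in hippocampus (blue) and olfactory bulb (red), with 95% limma intervals and 3 arrays a group. All points are open because no gene passed an adjusted p of 0.05. Most points lie left of 0 in both tissues, with Acta2 in hippocampus at -0.59 and Sox18 in bulb at -0.41 the farthest.

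Among the 12, Sox18, a SOX factor of endothelial and lymphatic development, read 7.49, 7.69 and 7.36 in WT bulb and 7.16, 7.05 and 7.09 in KO bulb. Its difference was -0.41 in bulb (SE 0.12, adjusted p = 0.208) and -0.07 in hippocampus, where WT replicate 1 at 7.81 was the highest of all arrays. The difference between these effects was 0.34 (SE 0.16, adjusted p = 0.475). Pltp, which encodes the phospholipid transfer protein, read 9.56, 9.66 and 9.27 in WT bulb and 9.21, 9.10 and 9.18 in KO bulb (-0.33, SE 0.12, adjusted p = 0.316). In hippocampus it read 9.59, 9.17 and 9.17 in WT and 9.15, 9.16 and 9.01 in KO (-0.20, adjusted p = 0.621). Pltp thus lay lower in KO without overlap in both tissues, by a small margin in hippocampus.

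VE-cadherin's gene Cdh5 read 8.48, 8.40 and 8.18 in WT bulb and 8.02, 8.07 and 8.08 in KO bulb (-0.30, SE 0.12, adjusted p = 0.373). Tek, the angiopoietin receptor TIE2, read 7.46, 7.75 and 7.55 in WT bulb and 7.31, 7.42 and 7.41 in KO bulb (-0.21, adjusted p = 0.439). In both genes the lowest WT array lay above the highest KO array. Tagln read 6.83, 7.11 and 6.79 in WT bulb and 6.68, 6.64 and 6.48 in KO bulb (-0.31, adjusted p = 0.369). Slco1a4 differed by -0.23 in bulb (adjusted p = 0.454) and -0.22 in hippocampus (adjusted p = 0.592).

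Itm2a, an integral membrane protein gene expressed in brain endothelium, came nearest to a call. In hippocampus it read 9.34, 8.88 and 9.16 in WT and 8.82, 8.90 and 8.55 in KO, with KO replicate 5 above WT replicate 2. In bulb it read 8.98, 8.93 and 8.77 in WT and 8.62, 8.65 and 8.61 in KO, without overlap. The difference was -0.37 in hippocampus (SE 0.11, adjusted p = 0.329), -0.27 in bulb (adjusted p = 0.391) and -0.32 on the means of the mice (SE 0.069, adjusted p = 0.0859). Over alternative settings the last value passed with eBayes trend and robust options (adjusted p = 0.0236) and after quantile normalization (0.0414), and the hippocampus value with array weights (0.0499). The highest adjusted p for the means of the mice was 0.287.

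Acta2 had the largest KO difference of the 33 genes. It read 9.34, 8.30 and 8.87 in WT hippocampus and 8.25, 8.37 and 8.11 in KO hippocampus. WT replicate 2 lay among the KO arrays. The difference was -0.59 (SE 0.20, adjusted p = 0.413), a 1.51-fold lower signal. It was -0.35 without WT hippocampus replicate 1, and -0.86 without WT hippocampus replicate 2, the only array whose removal brought it past the threshold (adjusted p = 0.0415). In bulb Acta2 read 8.26, 8.26 and 7.94 in WT and 8.33, 7.92 and 7.85 in KO (-0.11, adjusted p = 0.859). Myh11 differed by -0.17 in hippocampus (adjusted p = 0.692) and 0.01 in bulb (adjusted p = 0.983).

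For the vascular genes the WT hippocampus arrays varied most among themselves. The median SD of the 33 genes was 0.188 there, and 0.104, 0.121 and 0.0726 in KO hippocampus, WT bulb and KO bulb. Over all genes the WT hippocampus arrays did not stand out: the median SDs in the same order of groups were 0.0848, 0.0999, 0.0965 and 0.0793. The widest SDs in WT hippocampus were those of mural genes, Acta2 at 0.517 with Anpep and Vtn next. Replicate 1 was the highest of the 3 WT hippocampus arrays for 25 of 33 vascular genes (75.8%), among them 15 of 17 endothelial genes, where it was highest for 31.8% of all genes. Replicate 2 was the lowest for 22 of 33, all 6 barrier transporters included. In WT bulb replicate 2 was highest for 21 of 33 and replicate 3 lowest for 24.

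Among the WT hippocampus arrays, markers of meninges moved with these genes. Set against the WT mean of the tissue, the mean of the 3 smooth muscle genes was 0.38, -0.33 and -0.06 on WT hippocampus replicates 1, 2 and 3, and that of 18 meningeal and fibroblast genes was 0.39, -0.37 and -0.02. On the KO hippocampus arrays the smooth muscle mean was -0.32, -0.22 and -0.31 and the meningeal mean -0.16, -0.19 and -0.30. In WT bulb the smooth muscle mean was -0.0052, 0.15 and -0.14 on replicates 1, 2 and 3. The meningeal mean was 0.16, 0.09 and -0.25 there, so the highest array was not the same. Neuron and astrocyte genes also lay above 0 on WT hippocampus replicate 1, by 0.02 and 0.04. The mean log2 level of the meningeal genes ran from 7.54 to 8.31 in WT hippocampus, 7.61 to 7.75 in KO hippocampus, 7.90 to 8.31 in WT bulb and 8.01 to 8.04 in KO bulb. Of the 18, 14 were below 0 for KO minus WT in hippocampus, 15 in bulb and 18 on the means of the mice, with 0 called by limma and 3, 2 and 4 at an unadjusted p under 0.05 (16.7%, 11.1% and 22.2%, against 8.91%, 11.3% and 9.93% of all genes). Choroid plexus genes were also highest on WT hippocampus replicate 1 (0.35), and 8 of 11 were above 0 for KO minus WT there. The part of meninges or choroid plexus in the vascular values was not tested.

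**Figure D4:**
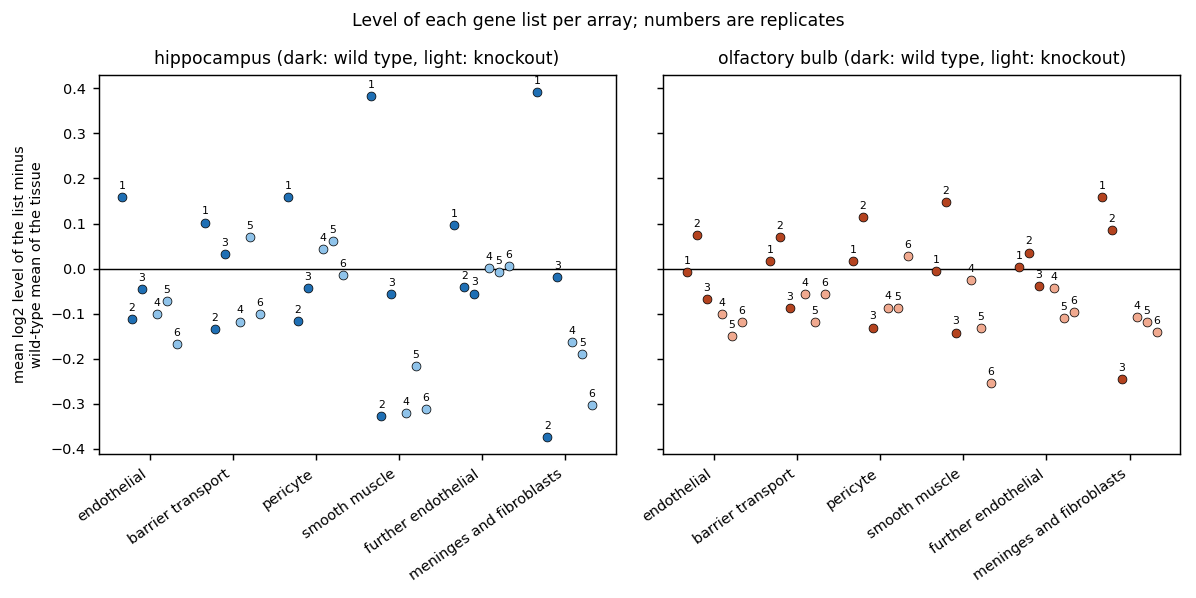
Mean log2 level of each gene list on each array, minus the wild-type mean of the same tissue (vertical axis), with the replicate number above each point, for hippocampus (left) and olfactory bulb (right). On WT hippocampus replicate 1 all lists shown lie above 0, smooth muscle at 0.38 and meninges at 0.39. In bulb the 3 KO arrays lie below the 3 WT arrays for the endothelial list.

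In the signalling lists, 1 gene was called lower in KO bulb. It is 1 of 38 angiogenic genes (2.63%), where 0.411% of all genes were called in either direction. Epas1, which encodes the hypoxia factor HIF-2alpha that endothelium carries at high levels, read 10.46, 10.49 and 10.35 in WT bulb and 10.02, 9.98 and 10.12 in KO bulb, without overlap. It fell by 0.40 (SE 0.073, adjusted p = 0.0309), and in hippocampus it differed by 0.01 (adjusted p = 0.975). The difference between the tissues' effects did not pass (0.41, adjusted p = 0.34). The call of Epas1 in bulb was lost without 5 of the 6 arrays in turn, all but WT bulb replicate 3 (adjusted p 0.0574 to 0.139), in a fit of the 6 bulb arrays alone (0.0918) and with every probe set tested (0.056).

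Aplnr, the apelin receptor gene of sprouting and venous endothelium, read 6.80, 6.86 and 7.00 in WT bulb and 6.42, 6.43 and 6.43 in KO bulb (-0.46, adjusted p = 0.0696). In hippocampus it read 6.68, 6.76 and 6.34 in WT and 6.50, 6.27 and 6.39 in KO, with overlap. On the means of the mice it fell by 0.33 (SE 0.054, adjusted p = 0.0164), the only one of the 38 angiogenic genes called there (2.63%, against 0.577% of all genes). That call was lost without 4 of the 6 mice in turn (adjusted p 0.0587 to 0.0949) and with every probe set tested (0.0949). Of the 38 genes, 27 were below 0 in bulb (median -0.08) and 20 in hippocampus (median -0.0081). No further endothelial gene, further mural gene or gene of Wnt and norrin signalling was called for KO against WT in either tissue or on the means of the mice. Among those genes that were rerun under the alternatives, Car4 gained a call on the means of the mice with eBayes trend and robust options (-0.19, adjusted p = 0.0364).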

How the data were processed

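Total RNA of 12 tissue samples had been biotin-labelled and hybridised to 1-colour arrays, 1 array per tissue and mouse. The authors deposited log2 intensities, normalized by RMA with the oligo package, per the submitters' processing notes, which give no versions. Arrays give no read depth, so their number limits the precision. Of 35556 probe sets, 23410 were listed in the platform annotation and 21789 carried 1 symbol. Where a symbol had several, the one brightest on average over the 12 arrays was kept, which left 19938 genes, with no further normalization or filter. The genome build was not given in the sources used here.

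Groups came from the sample titles. Group means were fitted over all 12 arrays with limma 3.58.1 in R 4.3.3 (lmFit, eBayes), with Benjamini-Hochberg adjustment over all genes, a step tested on simulated data. The tests of both tissues together used 1 mean per mouse. The p-values of those tests measure the spread between 3 mice per genotype. The other main tests used 1 spread per gene, pooled over the 4 groups. They took the 12 arrays as independent, although each mouse gave both tissues. Tissues with the same animal code in the labels come from 1 mouse, and their deviations correlated from -0.26 to 0.12 over 6 pairs, so that pairing by mouse is given among the alternatives. Codes and title numbers pair 2 WT mice differently.

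Named genes are all vascular genes, Rasgrf2 and, from each further list, up to 6 called genes by smallest p plus up to 2 others. The vascular genes and lists were chosen with earlier results of these data known. Alternatives were array weights, trend and robust eBayes, fits of 6 arrays, array centring, quantile normalization, probe-set rules, a filter on low signal, a mouse block and leaving out each array. Promoters were searched with Python 3.11.15, and figures drawn with matplotlib 3.10.9.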

Additional observations from a re-analysis of the deposited data

How the results depend on the processing

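Over the 33 vascular genes, all comparisons and all alternatives, 3076 of 3201 values kept their side of the threshold. Of the rest, 95 lost a call, 30 gained one and 0 reversed a called direction. Differences that were not called could change sign and still count among the 3076. For Slc2a1, the difference between the tissues' KO effects had the other sign in 9 of 21 alternatives. For KO against WT, the count of called genes in hippocampus was 1 with array weights (Itm2a) and 0 to 1 leaving out each array (Acta2, without WT replicate 2). On the means of the mice it was 1 with trend and robust eBayes and 1 after quantile normalization (Itm2a both times), and 0 to 0 leaving out each mouse. In bulb and for the difference between tissues it was 0 throughout. For hippocampus against bulb, the count of 15 in WT was 9 to 13 and that of 13 in KO was 8 to 11 leaving out each array, and in KO it was 8 with every probe set tested. The cause was not tested.

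With the mouse as a replicate block, the counts were 14 (random block, by code), 14 (by title number) and 12 (fixed block) in WT, 11, 12 and 13 in KO, and 0 for the difference between tissues. Consensus correlations within mice were -0.070 and -0.032. The calls that moved differed by block. Under the fixed block Cldn5 (adjusted p 0.0623), Cdh5 (0.065) and Mfsd2a (0.0585) lost their WT calls, and Sox17 (0.0288) gained one in KO. Under both random blocks Foxq1 (0.059 and 0.0521) lost its WT call. Sox18 (0.0518) lost its KO call under the random block by code, and Pecam1 (0.0503 to 0.0731) lost its KO call under every block. The blocks changed no other call of the 33 genes. With 3 arrays a group, the median 95% interval of a KO difference within a tissue reached 0.215 log2 units to either side.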
